A study of Mus musculus with 21 samples.

Results

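The genes described here encode subunits of the transcription factor NF-kB and the proteins that hold it back or feed back on it. The list has 10 genes, taken by name and not by a threshold on values, though with earlier results of these data known: Rela, Relb, Nfkb1, Nfkb2, Nfkbia, Nfkbie, Bcl3, Tnfaip3, Traf1 and Birc3. Of these, 9 were held by all 4 deposited expression tables, and Bcl3 was not analysed here. The 4 tables hold 14698 genes in at least 1 table and 9973 genes in every table.

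The cells were Ba/F3, a mouse pro-B line that normally needs interleukin-3 to grow, made to express JAK2-V617F, the activated kinase mutant of myeloproliferative neoplasms, by retroviral gene transfer and withdrawal of interleukin-3. All groups carry this mutant, and no group without it was included, so every comparison is of inhibitor against DMSO in mutant cells of this 1 line. CHZ_treated, Ruxo_treated and DMSO_treated cells were exposed for 6 h to 1 μM CHZ868, a type II inhibitor that binds inactive JAK2, to 1 μM ruxolitinib, a type I inhibitor that binds active JAK1 and JAK2, or to DMSO, the solvent. Ruxo_wash and CHZ_wash cells had 1 h of 1 μM inhibitor, were rinsed with PBS and were left 6 h without it. DMSO_wash is the solvent control of the ruxolitinib washout, and DMSO_wash_exp3 that of the CHZ868 washout. The 7 groups have 3 libraries each, 21 in all, and the labels do not say whether these came from separate cultures, so p-values measure only the spread between these libraries, which may be technical.

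NF-kB works as dimers of REL proteins. RelA and p50, the product of Nfkb1, form the main dimer of the canonical pathway, while RelB and p52, the product of Nfkb2, act in the slower non-canonical pathway. In resting cells IkB proteins, among them the products of Nfkbia and Nfkbie, keep dimers in the cytoplasm until the IKK kinases mark them for destruction. Active NF-kB then switches on several of its own regulators. Nfkbia and Nfkbie restore inhibition, Tnfaip3 encodes the ubiquitin editor A20, and Traf1 and Birc3 encode proteins of TNF receptor complexes. In lymphoid cells the pathway supports survival and growth.

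Promoter sequences are shown for the inhibitor Nfkbia, a feedback gene of the pathway, and for Rela and Nfkb2, subunits that passed the test, so that the letters can be seen beside the values. The sequences are those of RefSeq on build GRCm38.p6, read 5′ to 3′ on the strand of the gene, and entries were matched for 8 of the 10 listed genes. Nfkb1 and Relb were not matched. Matches to the NF-kB consensus decamer on either strand are in capitals. The Nfkbia stretch covers the 250 bases before the annotated start, chr12:55492648-55492897, minus strand, and holds 1 match close to the start.
Nfkbia promoter: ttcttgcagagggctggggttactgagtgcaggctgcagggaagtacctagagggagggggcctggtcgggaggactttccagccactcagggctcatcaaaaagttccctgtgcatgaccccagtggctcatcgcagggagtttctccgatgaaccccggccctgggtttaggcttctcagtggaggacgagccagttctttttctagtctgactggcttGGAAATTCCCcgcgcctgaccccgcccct
The Rela stretch is chr19:5637291-5637482, plus strand, the 192 bases before the annotated gene, and holds no match to the decamer.
Rela promoter: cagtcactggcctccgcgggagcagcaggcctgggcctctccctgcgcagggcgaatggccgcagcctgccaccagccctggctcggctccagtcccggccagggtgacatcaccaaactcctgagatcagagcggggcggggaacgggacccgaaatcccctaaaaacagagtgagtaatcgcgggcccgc
Nfkb2 had 3 decamer matches before its first RefSeq start, on chromosome 19, plus strand, a stretch that lies inside the gene as GENCODE annotates it. The stretches before its other RefSeq starts held 1 decamer match each and 0 matches to TTCNNNGAA. The 3 matches of the first are shown as windows of 30 bases beside its window with TTCNNNGAA, also in capitals. TTCNNNGAA is the palindrome that STAT proteins are known to bind.
Nfkb2 window with TTCNNNGAA, chr19:46304579-46304608: tgggcgagccTTCCCCGAAaggggcgcgcc
Nfkb2 window with 2 overlapping decamer matches, chr19:46304689-46304718: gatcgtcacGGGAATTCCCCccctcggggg
Nfkb2 window with 1 decamer match, chr19:46304707-46304736: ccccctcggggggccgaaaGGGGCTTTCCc

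Among the other members, the promoter of Nfkbie held 1 decamer match. Tnfaip3 has 2 RefSeq starts, and the promoter of the first held 2 matches and that of the other 0. The promoters of Traf1, Birc3 and Bcl3 held 0 matches to either motif. Over all 32851 RefSeq promoters of the same length, 3.90% held the decamer and 7.02% held TTCNNNGAA. A match describes letters in this window and not binding.

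Depth could be recovered as whole reads for 15 of the libraries and was 7880220 to 10673100 reads on the listed genes. The members had between 31 reads (Traf1) and 2622 reads (Nfkb1) per library there. The depth of the 6 libraries of the ruxolitinib washout is unknown. Of 12 Ba/F3 markers, 6 were present in each table, including Il3ra, Csf2rb, Cd79a and Cd79b, while Vpreb1, Igll1, Pax5, Ebf1 and Rag1 were in none. T cell markers were absent, 0 of 5, and the summed level of the macrophage markers was at most 54.7 CPM in any library. The share of CPM from mitochondrially encoded genes ranged from 1.36% to 6.37%, and Ruxo_treated replicate 2 and DMSO_wash_exp3 replicate 3 stood apart from their groups, with 3.53% and 5.33%. The 4 tables were normalized separately, so levels are compared within a table only. In a bulk culture, fewer cells of a kind and less RNA per cell cannot be told apart.

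The members differed widely in level. Levels between genes are given as log2 CPM per kilobase of the longest annotated transcript. In DMSO_treated cells Nfkb1 was highest, at 5.95 ± 0.016 (SD, n = 3), followed by Rela at 5.05 ± 0.073. Nfkb2 (4.59 ± 0.12) and Nfkbia (4.45 ± 0.038) came next and overlapped. Below them were Birc3 at 4.32 ± 0.060, Nfkbie at 2.92 ± 0.053, Relb at 2.34 ± 0.17, Tnfaip3 at 2.23 ± 0.13 and Traf1 at 1.03 ± 0.25, where only Relb and Tnfaip3 overlapped.

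The order differed in the tables of the washouts, in control cells as in inhibitor cells. In DMSO_wash_exp3 cells Nfkbia led at 5.51 ± 0.18 per kilobase and overlapped with Rela at 5.32 ± 0.19, while Nfkb1 came next at 4.72 ± 0.030. In DMSO_wash cells Birc3 (4.65 ± 0.38) and Rela (4.65 ± 0.030) led and overlapped, and Tnfaip3 was last at -0.69 ± 0.21. Under CHZ868 for 6 h, Rela (5.47 ± 0.21) and Nfkb1 (5.44 ± 0.096) overlapped at the top, where Nfkb1 had stood alone in DMSO_treated cells.

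**Figure D1:**
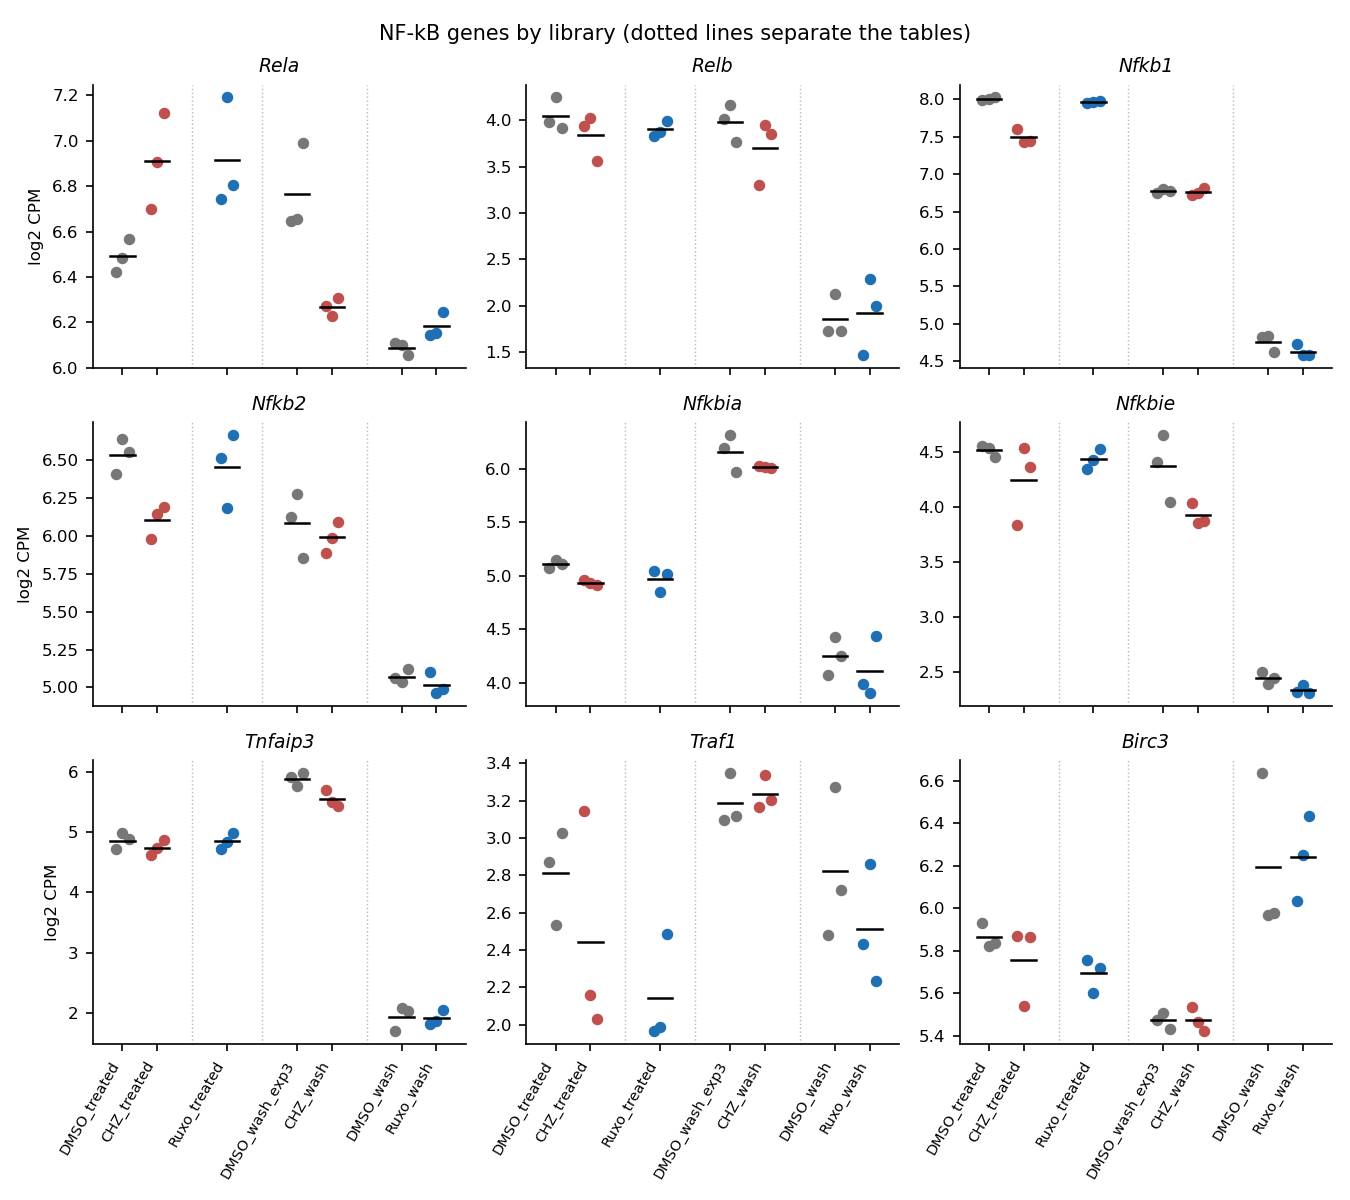
Level of each gene in log2 CPM (vertical axis) in every library, by group (horizontal axis). Points are libraries, bars are group means, grey is DMSO, red is CHZ868 and blue is ruxolitinib. CHZ868 libraries of Rela lie above DMSO_treated at 6 h and below their controls after washout, and levels across the dotted lines belong to separately normalized tables.

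Continuous exposure to CHZ868 asks which members differ from DMSO_treated cells after 6 h of this inhibitor. Rela rose, and Nfkb1 and Nfkb2 fell. These 3 of the 9 members passed the limma test with Benjamini-Hochberg adjustment over all genes at 0.05, against 53.2% of all 11670 genes tested, so the share of members was not above that of genes at large. The 3 called members are 1 higher and 2 lower, where 26.8% and 26.4% of genes were. The groups of 4 members did not overlap, 1 higher and 3 lower, against 59.7% of genes, 29.6% higher and 30.1% lower. The inhibitors of NF-kB and the feedback genes did not pass. The median log2 difference of the 9 members was -0.21 and that of all genes was -0.0084, and 8 of the 9 values were below 0.

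Rela, the activating subunit of the canonical dimer, lies on chromosome 19, 5637483 to 5648130 on GRCm38. Its values were 6.42, 6.49 and 6.57 log2 CPM in DMSO_treated and 6.70, 6.91 and 7.12 in CHZ_treated libraries. Each CHZ868 library was above each DMSO library. The log2 difference was 0.42 (SE 0.093, 95% interval 0.22 to 0.62), a fold of 1.3, with an adjusted p of 0.00150 by limma. With a trend on GC content removed, an alternative chosen after seeing the data, the difference was 0.65.

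The same groups differed in their mitochondrial share. The share was 1.36% to 1.42% in DMSO_treated and 4.93% to 6.37% in CHZ_treated libraries, and CHZ_treated replicate 3 had both the highest share and the highest Rela value. Within the groups the order was not the same for both measures: DMSO_treated replicate 3 had the lowest share of its group and its highest Rela value, and CHZ_treated replicate 2 had a lower share than replicate 1 with a higher Rela value. The part of this in the Rela difference was not tested.

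Nfkb1, which encodes the precursor of p50, lies on chromosome 3, 135584655 to 135691547. It stood at 7.99, 8.0 and 8.03 log2 CPM in DMSO_treated and at 7.60, 7.43 and 7.44 in CHZ_treated libraries. The groups were apart by more than the spread of either. The log2 difference was -0.52 (SE 0.063, 95% interval -0.65 to -0.38), a fold of 0.70, with an adjusted p of 6.77e-06 by limma.

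Nfkb2, which encodes the precursor of p52, lies on chromosome 19, 46304320 to 46312385. It read 6.41, 6.64 and 6.55 log2 CPM in DMSO_treated and 5.98, 6.14 and 6.19 in CHZ_treated libraries. Again no CHZ868 library reached the lowest DMSO library. The log2 difference was -0.43 (SE 0.086, 95% interval -0.61 to -0.25) with an adjusted p of 0.000643 by limma. With the GC trend removed it was -0.20, still past the threshold. Nfkb2 shares 830 exon bases with genes on the opposite strand, among them Psd. Whether reads were counted by strand is not given in the sources used here, so its value may include their reads.

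Relb, the partner of p52, had 3.98, 4.25 and 3.92 log2 CPM with DMSO and 3.94, 4.02 and 3.56 with CHZ868. Its groups overlapped, and the log2 difference of -0.21 (95% interval -0.58 to 0.16) did not pass.

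Among the inhibitors, Nfkbia (IkB-alpha) read 5.07, 5.15 and 5.11 log2 CPM with DMSO and 4.96, 4.93 and 4.92 with CHZ868. The groups did not overlap, yet the log2 difference of -0.18 (SE 0.10, 95% interval -0.40 to 0.046) had an adjusted p of 0.168 by limma. Nfkbie (IkB-epsilon) read 4.55, 4.53 and 4.45 with DMSO and 3.84, 4.53 and 4.36 with CHZ868, with a log2 difference of -0.27 (95% interval -0.63 to 0.090) and overlapping groups.

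Among the feedback genes, Tnfaip3 had a log2 difference of -0.12 (95% interval -0.38 to 0.14) and Birc3 one of -0.11 (95% interval -0.32 to 0.11), both with overlapping groups. Traf1 read 2.87, 2.53 and 3.03 log2 CPM with DMSO and 3.15, 2.16 and 2.03 with CHZ868. These rest on 57 to 75 reads and on 87, 32 and 31 reads, and CHZ_treated replicate 1 was above every DMSO library. The log2 difference was -0.37 (95% interval -1.01 to 0.28), and it turned on single libraries. Without CHZ_treated replicate 1 it was -0.72, with an adjusted p of 0.0334 by limma, and without replicate 3 of that group it was -0.16, with an adjusted p of 0.671. Birc3 has a near copy in the genome, Gm43392, so its reads are uncertain.

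**Figure D2:**
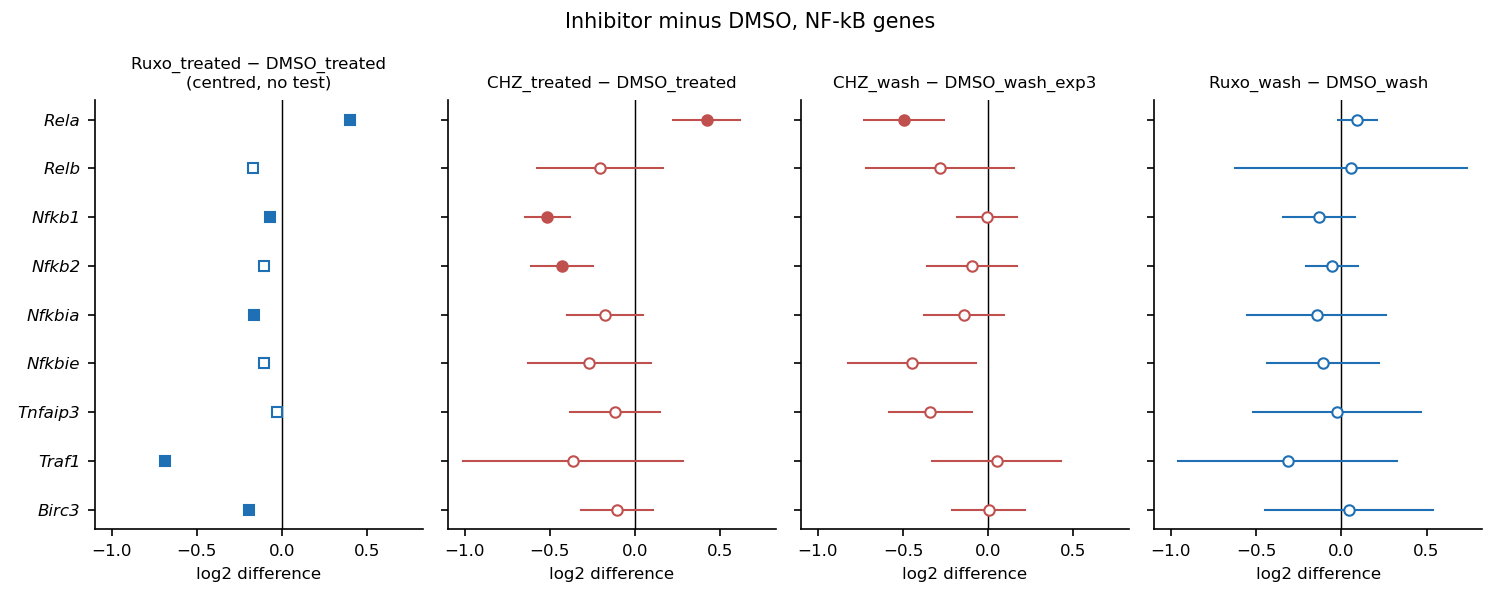
Log2 difference of inhibitor minus its DMSO group (horizontal axis) for each member (vertical axis), 1 panel a comparison. Lines are 95% intervals of limma, filled circles passed the adjusted threshold, and filled squares in the untested panel mark groups without overlap. Rela is 0.42 above 0 in CHZ_treated and 0.49 below 0 in CHZ_wash cells.

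Ruxolitinib for 6 h was compared with the same DMSO_treated libraries, after subtracting from each library its median over the 11624 genes held by both tables. Because the tables were normalized separately, this is a description with no test. The groups of 5 of the 9 members did not overlap, against 44.6% of all genes, 1 higher (24.6% of genes) and 4 lower (20.1% of genes). No member differed by 1 log2 or more without overlap, as 3.12% of genes did, with 2.83% of all genes lower and 0.292% higher. Rela was the member above DMSO, and Nfkb1, Nfkbia, Traf1 and Birc3 were below it.

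The centred log2 values of Rela were 1.17, 1.23 and 1.32 with DMSO and 1.47, 1.94 and 1.51 with ruxolitinib. All ruxolitinib libraries were above all DMSO libraries, by 0.40 on average, and by 0.25 without Ruxo_treated replicate 2, the library with the highest value and a mitochondrial share of 3.53% against 1.70% and 1.72%. The part of that share was not tested. Nfkb1 was 0.071 lower on the log2 scale, with 2.67, 2.71 and 2.68 against 2.75, 2.75 and 2.78, a narrow gap with tight groups. The value was -0.048 without centring and -0.14 with quantile normalization.

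Traf1 was lower by 0.69 on the log2 scale, with centred values of -3.31, -3.27 and -2.81 against -2.38, -2.72 and -2.22, from 36 to 51 reads in the ruxolitinib libraries. With 5 CPM added before the log, its difference was -0.38. Birc3 differed by -0.19 and Nfkbia by -0.17. Nfkb2 (-0.10), Relb (-0.17), Nfkbie (-0.10) and Tnfaip3 (-0.032) overlapped between groups. Leaving out a library turned the sign of Nfkb2, which lay between -0.20 and 0.019 and was 0.019 without Ruxo_treated replicate 2, and that of Tnfaip3, which lay between -0.099 and 0.031.

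Set side by side for the 6 h exposures at 1 μM, which share their DMSO libraries, Rela was at 0.40 with ruxolitinib and 0.42 with CHZ868. Without Ruxo_treated replicate 2 the ruxolitinib value of Rela was 0.25. Nfkb1 was at -0.071 and -0.52, and Nfkb2 at -0.10, with the sign resting on Ruxo_treated replicate 2, and -0.43. Nfkbia was at -0.17 and -0.18, and Traf1 at -0.69 and -0.37. Differences between the inhibitors at 6 h were not tested.

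Washout asks whether the members return to control level, or beyond it, 6 h after the inhibitor is removed. After ruxolitinib washout, 0 of the 9 members passed limma with adjustment over all genes, against 0.0229% of the 13085 genes tested. An unadjusted p under 0.05 was found for 0 of the 9 members and for 920 of the 13085 genes. The 10 other settings and the fits that left out a library also gave 0 members. The log2 differences ran from -0.31 for Traf1 to 0.094 for Rela, with a median of -0.056 beside 0.00016 for all genes.

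Rela read 6.11, 6.10 and 6.05 log2 CPM in DMSO_wash and 6.15, 6.15 and 6.25 in Ruxo_wash libraries. The groups were apart by a narrow gap. The difference of 0.094 (SE 0.047, 95% interval -0.021 to 0.21) had an adjusted p of 0.748 by limma. The mitochondrial share was alike here, 3.00% to 3.15% with DMSO and 2.81% to 3.28% after ruxolitinib.

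Nfkbie was the other member without overlap, with 2.5, 2.39 and 2.44 log2 CPM in DMSO_wash and 2.32, 2.38 and 2.31 in Ruxo_wash libraries. The share of all genes without overlap in this comparison was 12.9%, with 6.30% higher, as Rela was, and 6.59% lower, as Nfkbie was. Nfkbia, the prompt feedback inhibitor, read 4.07, 4.43 and 4.25 with DMSO and 3.99, 3.90 and 4.44 after ruxolitinib, and the interval of its difference was -0.55 to 0.27. The intervals of Relb (-0.62 to 0.74) and Traf1 (-0.96 to 0.33) were wider still.

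After CHZ868 washout, Rela was lower than in its DMSO group. It was 1 of the 9 members to pass limma with adjustment over all genes, against 4.02% of 11355 genes tested (1.96% higher and 2.07% lower). An unadjusted p under 0.05 was found for 3 of the 9 members and for 2767 of the 11355 genes. The median log2 difference of the members was -0.14 and that of all genes was 0.0053.

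Rela read 6.65, 6.66 and 6.99 log2 CPM in DMSO_wash_exp3 and 6.27, 6.23 and 6.31 in CHZ_wash libraries. The washout libraries lay close together and below every control. The log2 difference was -0.49 (SE 0.11, 95% interval -0.73 to -0.26), a fold of 0.71, with an adjusted p of 0.0409 by limma. DMSO_wash_exp3 replicate 3, with the highest Rela value, also had the highest mitochondrial share of its group, 5.33% against 2.84% and 2.27%, while CHZ_wash libraries had 1.76% to 2.14%. The part of this was not tested, and without that library the difference was -0.38 with an adjusted p of 0.00669 by limma. Among the CHZ_wash libraries replicate 1 had the highest share and replicate 3 the highest Rela value.

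The call rests on the libraries and the fit. Without CHZ_wash replicate 1, 2 or 3 or DMSO_wash_exp3 replicate 1 the adjusted p of Rela was 0.125, 0.173, 0.157 and 0.140. In the same fits 0, 1, 0 and 0 of all genes passed, where 457 had passed with all libraries. Without DMSO_wash_exp3 replicate 2 or 3 there were 1298 and 1426 genes. Without a mean-variance trend the adjusted p of Rela was 0.106, and with the GC trend removed it was 0.134 with a difference of -0.36.

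Nfkbie read 4.41, 4.65 and 4.05 log2 CPM in DMSO_wash_exp3 and 4.04, 3.85 and 3.87 in CHZ_wash libraries. The gap between the groups was narrow and the control spread wide. The log2 difference of -0.45 (SE 0.17, 95% interval -0.82 to -0.073) had an adjusted p of 0.141 by limma, and without DMSO_wash_exp3 replicate 3 it was -0.61 with an adjusted p of 0.0165.

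Tnfaip3 read 5.91, 5.76 and 5.98 in DMSO_wash_exp3 and 5.70, 5.5 and 5.43 in CHZ_wash libraries, again without overlap. Its log2 difference of -0.34 (SE 0.11, 95% interval -0.58 to -0.098) had an adjusted p of 0.0954, and without DMSO_wash_exp3 replicate 2 it was -0.40 with an adjusted p of 0.0486 by limma. The groups of 3 members did not overlap, all lower, beside 31.0% of all genes, 16.1% lower and 14.9% higher.

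Nfkb1 did not differ beyond its spread, with 6.75, 6.80 and 6.77 log2 CPM against 6.73, 6.75 and 6.82, and the interval of its difference was -0.19 to 0.17. Nfkb2 (-0.097), Nfkbia (-0.14), Relb (-0.28), Traf1 (0.049) and Birc3 (0.0026) did not pass, and their groups overlapped. The 3 CHZ_wash libraries of Nfkbia, at 6.03, 6.02 and 6.01, lay inside the range of its controls, 5.97 to 6.32.

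**Figure D3:**
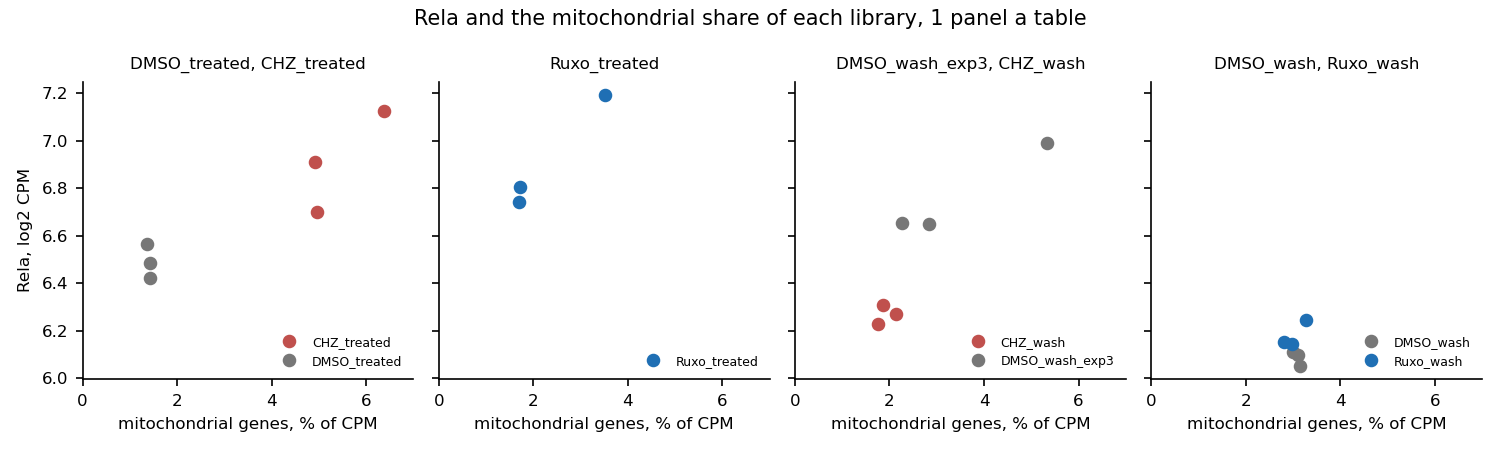
Rela in log2 CPM (vertical axis) against the percent of CPM from mitochondrially encoded genes (horizontal axis), 1 point a library and 1 panel a table. In each panel the library with the highest Rela value also has the highest share, at 6.37%, 3.53%, 5.33% and 3.28%, and in the panel of the ruxolitinib washout all shares lie between 2.81% and 3.28%.

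The effects of the 2 washouts were compared in 1 limma fit over 12 libraries and 10078 genes. The washouts are separate experiments in separately normalized tables, and whole reads could be recovered for CHZ868 but not for ruxolitinib, so a difference in how the tables were made cannot be told apart from a difference between the washouts. The effect of ruxolitinib washout on Rela was above that of CHZ868 washout by 0.59 on the log2 scale (SE 0.12, 95% interval 0.33 to 0.85), with an adjusted p of 0.0371. Rela was 1 of 9 members called, against 1.90% of genes (0.972% higher and 0.923% lower). For the other members the intervals of the difference held 0, from -0.36 to 0.12 for Nfkb1 at the narrowest to -0.40 to 1.08 for Relb at the widest. The call for Rela held in 2 of 12 fits with a library left out, those without DMSO_wash_exp3 replicate 2 or 3. In the other fits its adjusted p reached up to 0.0921, and the difference lay between 0.48 and 0.65 in all 12. Without a mean-variance trend the adjusted p was 0.0748, with the GC trend removed it was 0.173, and with a replicate block it was 0.0848.

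The effects of CHZ868 at 6 h and after washout were compared in the same way over 11175 genes. These groups too stand in separately normalized tables, and exposure was 6 h against 1 h before washout. Differences between the tables or in the length of exposure cannot be told apart from an effect of the washout. Rela and Nfkb1 were called, 2 of 9 members against 47.1% of genes (23.2% higher and 23.8% lower). The effect on Rela at 6 h was above that after washout by 0.91 on the log2 scale (SE 0.15, 95% interval 0.59 to 1.23, adjusted p = 0.000130 by limma), with a rise at 6 h and a fall after washout. For Nfkb1 the difference was -0.51 (SE 0.099, 95% interval -0.72 to -0.30, adjusted p = 0.000539 by limma), from -0.52 at 6 h and -0.0073 after washout. For Nfkb2 it was -0.33 (95% interval -0.66 to -0.012), with an adjusted p of 0.0821. Without DMSO_wash_exp3 replicate 2 that of Nfkb2 was -0.43, with an adjusted p of 0.0209 by limma, without replicate 3 of that group it was -0.22 with an adjusted p of 0.178, and with quantile normalization it was -0.40 at 0.0475. That of Traf1, -0.41 with all libraries, was -0.76 without CHZ_treated replicate 1, with an adjusted p of 0.0382 by limma, and -0.21 without CHZ_treated replicate 3, with an adjusted p of 0.655.

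The other genes of the pathway were taken from 6 lists with 73 genes, of which 57 were in the table of the 6 h CHZ868 comparison. Of these, 11 rose, 26 fell and 20 did not pass, and their median log2 difference was -0.32 against -0.0084 for all genes. These counts stand beside 26.8% higher and 26.4% lower among all genes.

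Of 28 reported target genes of NF-kB, 16 were measured in this comparison, of which 11 fell, 0 rose and 5 did not pass by limma, with a median of -0.67. No others had an unadjusted p under 0.05. In the same fit 26.4% of all genes fell and 26.8% rose. Irf1, an interferon pathway factor that STAT proteins also induce, fell by 2.40 on the log2 scale (SE 0.078), from 7.56 ± 0.063 to 5.16 ± 0.095 log2 CPM (SD, n = 3). Cd69, a lymphocyte activation marker, fell by 1.99 (SE 0.19), and Csf1, the macrophage growth factor M-CSF, fell by 1.86 (SE 0.29). With ruxolitinib at 6 h, without a test, the centred differences of these genes were -2.30, -2.62 and -1.56, and 13 of the 16 measured targets were below DMSO without overlap, with 1 above it, against 20.1% of all genes below and 24.6% above. The effects of CHZ868 at 6 h and after washout differed for Irf1, Cd69 and Csf1. These genes were named for their falls at 6 h, so this difference is not independent of that choice.

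After the washouts 0 targets passed by limma, of 17 measured for ruxolitinib and 16 for CHZ868, and 3 had an unadjusted p under 0.05 in each. Over the 6 lists, 0 of 58 genes passed after ruxolitinib washout, with 5 at an unadjusted p under 0.05, and 3 of 57 passed after CHZ868 washout, all lower, with 11 at an unadjusted p under 0.05. The share of all genes called after CHZ868 washout was 4.02%, with 2.07% lower, so 3 of 57 is near that share. Of all genes, 920 of 13085 had an unadjusted p under 0.05 after ruxolitinib washout, and 2767 of 11355 after CHZ868 washout. Irf1 differed from its control by 0.11 (95% interval -0.028 to 0.24) after ruxolitinib and by 0.034 (95% interval -0.14 to 0.21) after CHZ868.

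Among the other REL and IkB proteins, Nfkbid (-0.77, SE 0.21) and Nfkbiz (-0.40, SE 0.13), nuclear IkB proteins that modulate transcription, fell with CHZ868 at 6 h, while Rel and Nfkbib did not pass. These 2 of 4 stand beside 53.2% of all genes called, with 26.4% lower. Nfkbiz lost its call with quantile normalization, at an adjusted p of 0.0559, and without DMSO_treated replicate 3, at 0.0974. Nfkbib, which encodes IkB-beta, fell after CHZ868 washout by 0.66 (SE 0.14), from 5.14 ± 0.24 to 4.48 ± 0.034 log2 CPM.

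Of 7 measured kinases, 2 rose and 3 fell with CHZ868 at 6 h, beside 26.8% higher and 26.4% lower among all genes. Chuk, which encodes IKK-alpha, fell by 0.38 (SE 0.062) and Map3k7, which encodes the upstream kinase TAK1, rose by 0.37 (SE 0.070). Ikbke, which encodes IKK-epsilon, fell by 0.45 (SE 0.14) and lost its call with quantile normalization, at an adjusted p of 0.0531, and without DMSO_treated replicate 1, at 0.0927.

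Of 16 genes in the list of adaptors, which also holds kinases and ubiquitin ligases, 5 rose and 3 fell with CHZ868 at 6 h. The share called was not above the 53.2% of all genes. Tab2, the adaptor of TAK1, rose by 1.01 (SE 0.063), from 7.83 ± 0.060 to 8.84 ± 0.099 log2 CPM, and Tank rose by 0.56 (SE 0.080). Traf2 fell by 0.51 (SE 0.14), and without DMSO_treated replicate 1 its adjusted p was 0.0656. Of 5 measured receptors, Tlr4 (-0.72, SE 0.15) and Tnfrsf1b (-0.71, SE 0.14), which encodes TNF receptor 2, fell, and Tnfrsf1a (0.33, SE 0.092), which encodes TNF receptor 1, rose. These 3 of 5 stand beside 53.2% of all genes called, with 26.8% higher and 26.4% lower.

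Of 9 genes that make, bind or remove ubiquitin chains, 3 rose and 5 fell, beside 53.2% of all genes called in either direction. Rnf31, the catalytic subunit of the linear ubiquitin ligase, fell by 0.75 (SE 0.11), while Otulin, which removes linear chains, rose by 0.56 (SE 0.13). Tnip1, a partner of A20, rose by 0.72 (SE 0.074), from 6.28 ± 0.094 to 7.0 ± 0.063 log2 CPM.

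Tnip1 and Rbck1, another subunit of the ligase, passed after CHZ868 washout. Tnip1 fell by 0.59 (SE 0.086, adjusted p = 0.0202 by limma), from 7.01 ± 0.093 to 6.42 ± 0.032, and Rbck1 fell by 0.39 (SE 0.078, adjusted p = 0.0356 by limma), from 7.85 ± 0.0086 to 7.46 ± 0.068. Tnip1 thus rose at 6 h and fell after washout, as Rela did. The calls of Nfkbib, Tnip1 and Rbck1 were lost without CHZ_wash replicate 1, 2 or 3 and without DMSO_wash_exp3 replicate 1, as that of Rela was, with adjusted p between 0.102 and 0.169. They were also lost without a mean-variance trend and with the GC trend removed, where Rbck1 was at -0.24.

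**Figure D4:**
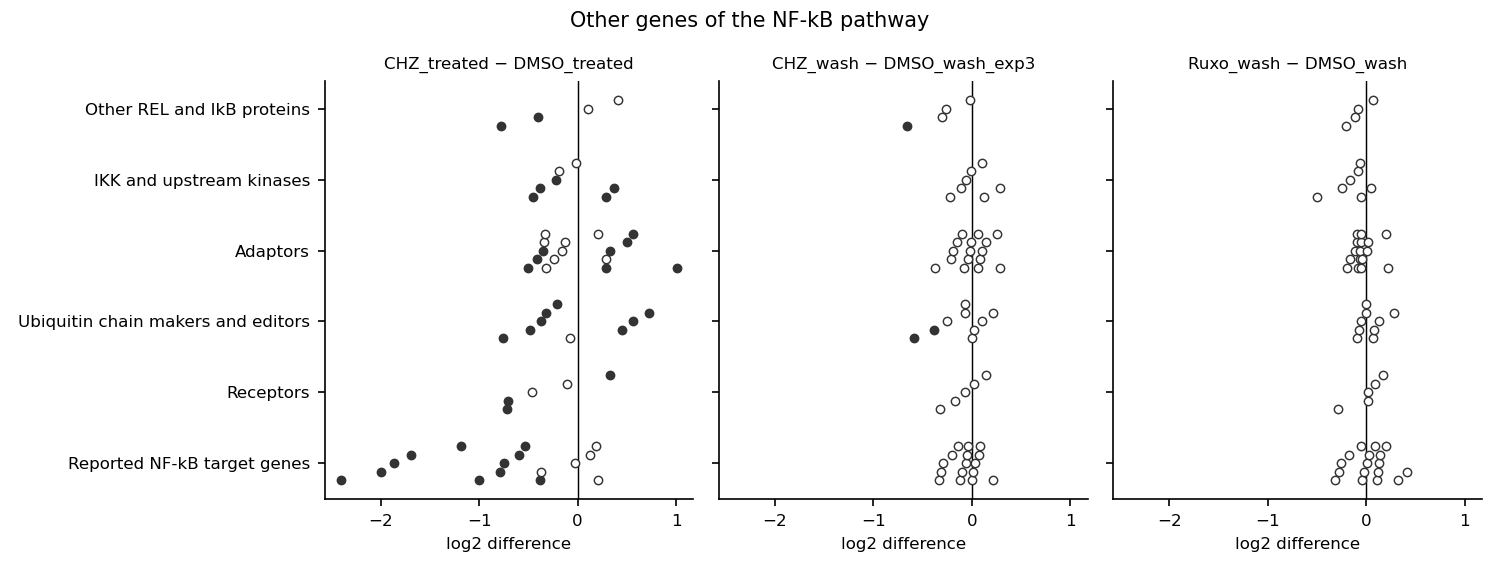
Log2 difference of inhibitor minus DMSO (horizontal axis) for each measured gene of the 6 lists (vertical axis), 1 panel a comparison. Filled points passed the adjusted threshold of limma. Filled points fill much of the left side of the target list in the first panel, with Irf1 at -2.40, while the third panel has none.

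The pattern of Nfkbia was set beside that of 9973 genes as Pearson's r over the 21 libraries, each library taken relative to the mean of its own DMSO group. The 5 genes most like it were Thbs3 (r = 0.76), Actr8 (0.74), Phldb1 (0.72), Rpsa-ps10 (0.72) and Plekhm3 (0.71). Among the members, r with Nfkbia was highest for Nfkb2 at 0.46 and lowest for Rela at -0.23. These values are descriptions over libraries that share tables and controls.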

How the data were processed

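RNA-seq of 21 libraries was analysed. The authors' methods name kallisto, GRCm38, biomaRt, TMM and voom with limma, whereas the submitters' processing notes name STAR 2.7.3a, edgeR 4.0.16 and GRCm39, so the aligner of each table is uncertain. The authors deposited log2 CPM per gene, with a small constant added, after a filter on low genes. Replicates were not pooled, and no column of per-sample values was left out.

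Within a table, limma-trend was fitted on the deposited log2 values (limma 3.58.1, R 4.3.3). P-values were adjusted by Benjamini-Hochberg across every gene of the fit, and adjusted values under 0.05 were called. Ruxo_treated and DMSO_treated stand in separately normalized tables and were compared without a test after median centring. With 3 against 3 libraries an exact permutation test cannot go below a two-sided p of 0.1, so single values have no such test. Whole reads were recovered from 3 tables (100% of values within 0.02 reads) and served for an alternative fit with voom weights. Those of the ruxolitinib washout gave no whole reads. A change of low genes is understated by the added constant. GENCODE and RefSeq annotations of GRCm38 gave positions, overlaps, near copies (blastn 2.17.0, at least 90% over 200 bases) and promoters. The fits were tested on simulated data.

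The members and lists were chosen with earlier results of these data known. Beyond the members, the named genes are the 3 of each list with the largest change past the threshold in CHZ_treated cells, those past it after washout and the 5 most like Nfkbia. Alternatives were normalization, constant, filter, trend, voom weights, a replicate block, each library left out and a GC trend.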

Additional observations from a re-analysis of the deposited data

Results flagged for a closer look

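The results here differed between experiments under 1 contrast, by limma's test of the difference itself, with adjustment over all genes of that fit. Values are log2 differences of effects. Between the washouts 1.90% of all genes were called, 0.972% higher and 0.923% lower. Between CHZ868 at 6 h and after washout 47.1% of all genes were called, 23.2% higher and 23.8% lower. In each contrast the effects come from separately normalized tables, and in the CHZ868 contrast exposure was 6 h against 1 h before washout. These differences cannot be told apart from those between the treatments named. Genes beyond the members were named for a call at 6 h of CHZ868 or after its washout. Those values enter the contrasts, so the calls of these genes here are not independent of that choice.

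Between the washouts, the effect of ruxolitinib washout was above that of CHZ868 washout for Rela by 0.59 (adjusted p = 0.0371), for Tnip1 by 0.52 (adjusted p = 0.0379) and for Rbck1 by 0.46 (adjusted p = 0.0225). These 3 calls were lost without a mean-variance trend, with the differences as they were, and with the GC trend removed, where the differences were 0.44, 0.40 and 0.30. With a replicate block they were lost too, at adjusted p of 0.0848, 0.0938 and 0.0848 by limma. In the CHZ868 washout every CHZ_wash library was below every control in mitochondrial share, as in Rela. Within the groups the order differed between the 2 measures. The part of the share was not tested.

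Between CHZ868 at 6 h and after washout, the effect at 6 h was above that after washout for Rela by 0.91 (adjusted p = 0.000130), Tnip1 by 1.31 (adjusted p = 1.27e-07), Nfkbib by 1.07 (adjusted p = 0.00189), Tab2 by 1.38 (adjusted p = 0.000226) and Tank by 0.64 (adjusted p = 0.00470). The same held for Otulin at 0.63 (adjusted p = 0.00795), Tnfrsf1a at 0.50 (adjusted p = 0.00531) and Map3k7 at 0.44 (adjusted p = 0.00628).

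It was below that after washout for Irf1, at -2.43 (adjusted p = 2.22e-11), Cd69, at -2.01 (adjusted p = 2.24e-07), and Csf1, at -1.87 (adjusted p = 0.000601). It was also below for Tlr4, at -0.86 (adjusted p = 0.00783), Chuk, at -0.67 (adjusted p = 8.15e-05), and Tnfrsf1b, at -0.63 (adjusted p = 0.00777). Nfkb1 stood at -0.51 (adjusted p = 0.000539) and Rnf31 at -0.50 (adjusted p = 0.00981).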

How the results depend on the processing

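At 6 h of CHZ868, Rela, Nfkb1 and Nfkb2 kept direction and call in all 17 alternatives, with 3 to 4 members called. After ruxolitinib washout 0 members were called throughout, while genes called moved from 3 to 9 without a mean-variance trend, 5 with robust eBayes, 0 with the GC trend removed and 0 with the replicate block, and lay between 0 and 1 with a library left out. After CHZ868 washout, genes called moved from 457 to 0 without a trend and 21 with the GC trend removed, members from 1 to 0 in both, and with a library left out genes lay between 0 and 1426 and members between 0 and 2. For the difference between washouts, genes moved from 191 to 14 without a trend and 10 with the GC trend removed, with 0 members in both, and with a library left out genes lay between 5 and 628 and members between 0 and 1. For ruxolitinib at 6 h, genes at least 1 log2 apart without overlap moved from 363 to 176 with 5 CPM added. The causes were not tested. Leaving out a library changes both the number of libraries and which of them are fitted.

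Whether the replicate numbers pair the libraries is not known. Correlations of deviations lay between -0.087 and 0.087, and not every library correlated best with its own number. With 3 libraries in a group such correlations cannot decide the question. With the replicate block the difference between washouts gave 6 genes and 0 members, with Rela at an adjusted p of 0.0848, and Tnip1 and Rbck1 at 0.0938 and 0.0848, and the differences themselves as they were. The block changed no other call of a named gene.

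No value past the threshold changed sign. Among the others, Tnfaip3 after ruxolitinib washout turned to 0.014, Tnfaip3 in ruxolitinib at 6 h to 0.00032 and Nfkb1 after CHZ868 washout to 0.010 with quantile normalization. After CHZ868 washout Birc3 turned to -0.0091 with median centring and -0.040 with the GC trend removed, and Nfkb2 to 0.040 with the latter. In the difference between washouts Nfkbia turned to 0.019 with median centring and 0.0047 and 0.023 with 1 and 5 CPM added, and with the GC trend removed Nfkb2 turned to -0.11 and Tlr4 to 0.13. Nfkbia in CHZ868 at 6 h minus washout turned to 0.0040 with median centring and 0.055 with the GC trend removed.

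Leaving out a library also turned Nfkb2 and Tnfaip3 in ruxolitinib at 6 h, to at most 0.019 and 0.031. With a library left out, Birc3 at 6 h of CHZ868 lay between -0.16 and 0.0018. After ruxolitinib washout Relb lay between -0.13 and 0.28, Tnfaip3 between -0.15 and 0.049 and Birc3 between -0.067 and 0.27. After CHZ868 washout Nfkb1 lay between -0.035 and 0.012, Traf1 between -0.0023 and 0.13 and Birc3 between -0.028 and 0.029. In the difference between washouts Nfkb2 lay between -0.055 and 0.16, Nfkbia between -0.17 and 0.10, Birc3 between -0.069 and 0.27, Nfkbiz between -0.062 and 0.22, Tank between -0.022 and 0.27, Traf2 between -0.28 and 0.071, Tlr4 between -0.18 and 0.10 and Csf1 between -0.29 and 0.058. In CHZ868 at 6 h minus washout Relb lay between -0.12 and 0.22, Nfkbia between -0.11 and 0.062 and Nfkbiz between -0.26 and 0.022.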
